A study of Mus musculus with 18 samples.

Results

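Translation factors are the proteins that bring the ribosome to an mRNA and move it along the coding sequence. Their transcripts were followed here in 18 mouse melanoma allografts through every probe set that carries exactly 1 gene symbol beginning with Eif or Eef and a digit. The rule includes the eIF4E-binding proteins and the eIF2 kinases, and found 155 of 45037 probe sets, which stand for 58 of 18193 genes. Of these, 47 are initiation factors or their partners and 11 are elongation factors or their partners.

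Every tumour grew from 1 mouse melanoma line, iNRAS-475, placed in the skin of nude mice, hosts that lack a thymus. Hosts drank water with 2 mg/ml doxycycline until tumours measured 200 to 500 mm3. In the -NRAS group (6 tumours) doxycycline was then withdrawn for 4 days, in the MEKi group (6 tumours) hosts received the MEK inhibitor AZD6244 at 100 mg/kg for 4 days, and in the vehicle group (6 tumours) they received vehicle. As background, doxycycline keeps an oncogenic NRAS transgene on in the iNRAS models; the promoter that drives it and the line's other alleles are not given in the sources used here. Only -NRAS hosts went without doxycycline at harvest, so loss of the drug and loss of the oncogene cannot be told apart. The design text calls the tumours distinct and counts them as biological replicates, and the results are those of 1 line.

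Total RNA was hybridised to one-colour Affymetrix arrays, whose deposited intensities had array medians between 72.3 and 78.5 and correlations within a group between 0.9871 and 0.997. The tissue label was checked on 8 melanocytic markers. Sox10, a neural crest and melanocyte factor, read between 7901 and 16608.5 in all tumours. Tyr and Tyrp1, enzymes of pigment synthesis, stayed at or below 21.8, under the filter on low values. Of the 6 tested, Mitf, Pmel, Mlana and Dct rose and Mc1r fell in -NRAS against vehicle tumours (limma, adjusted p under 0.05). Sox10 and Pmel rose in MEKi against vehicle tumours. Pmel changed most, by 2.30 in -NRAS and 0.80 in MEKi tumours (log2). Of all genes 31.8% rose and 27.5% fell in the first comparison, and 24.3% and 20.9% in the second. Markers of host tissue differed between the groups. The summed intensity of 12 macrophage markers was 67490 to 84680 in -NRAS tumours, 11670 to 27750 in MEKi tumours and 24970 to 41000 in vehicle tumours. That of 10 fibroblast markers was 179300 to 210100, 120500 to 127200 and 78350 to 96660 in the same order. Of these 10, 8 rose and 2 (Pdgfra and Thy1) fell in -NRAS against vehicle tumours, and 6 rose and 1 (Pdgfra) fell in MEKi against vehicle tumours. Sums in that order were 2193 to 2915, 1408 to 1831 and 1162 to 1766 for 8 endothelial markers. For 3 nerve markers they were 7580 to 10920, 8505 to 10910 and 3516 to 4779. The sum of 12 skeletal muscle markers was 35730 to 57480 in -NRAS tumours, 21580 to 51710 in MEKi tumours and 3908 to 19400 in vehicle tumours. Replicate 2 of the -NRAS group also carried keratinocyte transcripts, with a summed intensity of 28350 against 530.2 to 1122 in the MEKi and vehicle tumours. In such bulk RNA, fewer cells of a type and less RNA per cell cannot be told apart.

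Initiation starts when eIF4F binds the mRNA cap: eIF4E holds the cap, eIF4A unwinds the leader and eIF4G bridges to the ribosome, while unphosphorylated 4E-binding proteins keep eIF4E from eIF4G. The initiator tRNA arrives with eIF2 and GTP, eIF2B recharges eIF2, and the eIF2 kinases block that exchange under stress; eIF3, eIF1, eIF1A and eIF5 act on the small subunit, and eIF5B joins the large one. In elongation, eEF1A delivers aminoacyl-tRNAs, eEF2 moves the ribosome by a codon, and eEF2 kinase inhibits eEF2. In melanoma, RAS and MEK signalling is known to reach eIF4F through the MNK kinases and, with mTOR, through the 4E-binding proteins. Arrays measure transcripts, not the phosphorylation that sets the activity of several of these proteins.

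In -NRAS tumours translation factor transcripts were mostly lower than in vehicle tumours. Of 58 genes, 37 fell, 7 rose and 14 did not pass an adjusted p under 0.05 (limma, 15005 genes tested together); over all genes tested 27.5% fell and 31.8% rose. Their median log2 change was -0.32, against 0.0036 over all genes tested. Of these calls, 8 falls and 2 rises were at least 1.5-fold, as were the falls of 9.12% and the rises of 12.9% of all genes. All 6 -NRAS tumours lay below all 6 vehicle tumours for 32 members (18.4% of all genes) and above them for 3 (20.8% of all genes).

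MEKi tumours showed lower levels of fewer members. Here 26 of 58 fell, 4 rose and 28 did not pass, beside 20.9% falling and 24.3% rising among all genes, and the members' median log2 change was -0.15 against 0.0089 over all genes. Of the falls, 6 were at least 1.5-fold, and no rise was, beside 5.63% and 5.88% of all genes. All MEKi tumours lay below all vehicle tumours for 18 members (12.7% of all genes) and above them for 3 (12.8%). Both comparisons use the same vehicle tumours.

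Set directly against MEKi tumours, -NRAS tumours had lower levels of 20 members and higher levels of 5, and 33 did not pass. Among all genes 22.7% fell and 24.3% rose. Of the members' calls, 2 falls and 2 rises were at least 1.5-fold, beside 5.94% and 9.17% of all genes. The median member difference was -0.090 on the log2 scale, and -0.0090 over all genes. The -NRAS tumours lay below all MEKi tumours for 14 members (13.3% of all genes) and above them for 4 (15.0%).

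Macrophage and fibroblast signal moved with the groups, and few calls of any genes, members or not, were left once it was in the model. With the mean log2 scores of both marker lists as covariates, limma called 0 members in -NRAS against vehicle tumours, 6 falls in MEKi against vehicle tumours and 0 members in -NRAS against MEKi tumours. Over all genes, the same fit called 0.307% as risen and 0.813% as fallen in the first comparison, 2.51% and 3.96% in the second, and 0.0733% and 0.287% in the third. The 6 members that still fell in MEKi tumours were Eef1e1, Eif1a, Eif2s2, Eif3b, Eif4ebp1 and Eif5. In -NRAS against vehicle tumours, 24 of the genes whose lowest, median and highest values are given below were called without the covariates. The changes of 8 of these, Eif4e and Eif4a1 among them, took the opposite sign in that fit and did not pass. The median standard error was then 4.96, 2.72 and 3.73 times as large in these comparisons, and both scores differ strongly between the groups. The members' median log2 changes in that fit were -0.24, -0.13 and -0.09. Each gene above stands for its brightest probe set, and 39 genes had several that passed the filter. Counting all 144 member probe sets that passed, 84 fell and 16 rose in -NRAS against vehicle tumours (26.7% and 28.0% of all probe sets). In MEKi against vehicle tumours 61 fell and 7 rose (20.1% and 20.6%), and in -NRAS against MEKi tumours 40 fell and 13 rose (20.0% and 20.6%).

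**Figure D1:**
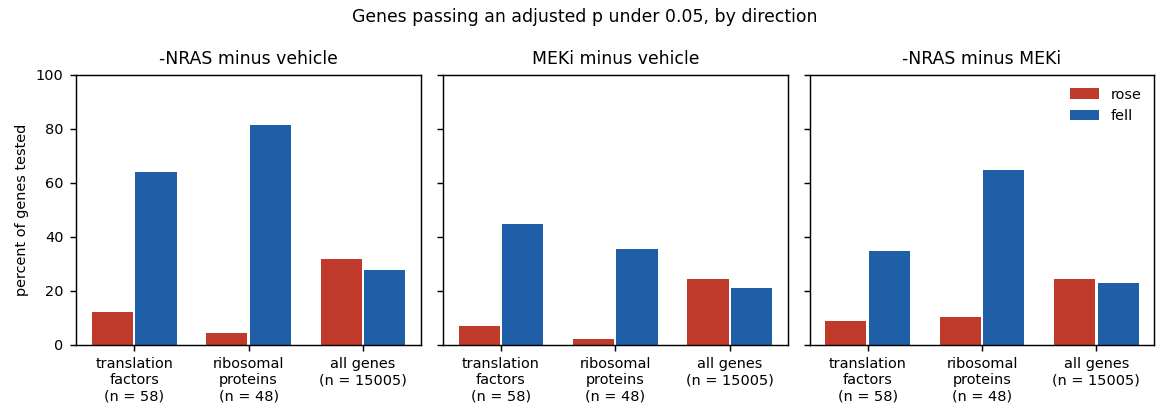
Share of genes, in percent of those tested, that rose (red) or fell (blue) at an adjusted p under 0.05, for the 58 translation factor genes, 48 cytosolic ribosomal protein genes and all 15005 genes, 1 panel per comparison of 6 against 6 tumours. Falls outnumber rises among the translation factors in all 3 panels, with 63.8%, 44.8% and 34.5% of the 58 genes falling.

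Because many members moved together, their promoters were searched for short motifs in the 250 bases before the RefSeq start (GRCm38.p6), on both strands; 47 of the 58 genes had an entry. The letters CACGTG, the E-box bound by MYC and by the MITF family, occurred in 11 of 47 members (23.4%) and in 9.45% of 11995 tested genes. The ETS core CCGGAAG, bound by factors that MAPK signalling can activate, occurred in 11 (23.4%) against 13.4% of genes. The cAMP response element TGACGTCA occurred in 0 members against 2.73% of genes, and TGATGNAA, the core read by ATF4, in 2 (4.26%) against 2.59%. Terminal oligopyrimidine starts, which mark many mRNAs of the translation machinery, were sought as a C and 4 pyrimidines at the annotated start on the coding strand, and occurred in 2 members (4.26%) against 2.96% of genes. Of the 11 members with the E-box, 5 fell and 1 rose in -NRAS against vehicle tumours, compared with 23 falls and 5 rises among the 36 without it, shares whose difference was not tested. Below, E-box stretches of members that fell (Eif4e, Eif4a1, Eef2) and rose (Eif1b) in both treated groups are shown on the coding strand with the match in capitals, followed by ETS matches, read as CTTCCGG on this strand, of the members Eif4ebp2, which rose, and Eif1ax, which fell. They lie at chr3:138527018-138527075 (plus), chr11:69672577-69672642 (minus), chr10:81176558-81176623 (plus), chr9:120492552-120492605 (plus), chr10:61452757-61452823 (minus) and chrX:159371936-159372002 (plus). A match describes letters, not binding.
Eif4e: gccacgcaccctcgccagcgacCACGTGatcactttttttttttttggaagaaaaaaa
Eif4a1: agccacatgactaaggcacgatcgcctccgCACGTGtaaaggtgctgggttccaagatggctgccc
Eef2: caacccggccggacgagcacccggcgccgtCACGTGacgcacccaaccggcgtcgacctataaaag
Eif1b: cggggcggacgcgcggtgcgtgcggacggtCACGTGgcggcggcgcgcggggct
Eif4ebp2: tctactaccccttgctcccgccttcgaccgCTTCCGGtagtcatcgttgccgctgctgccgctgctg
Eif1ax: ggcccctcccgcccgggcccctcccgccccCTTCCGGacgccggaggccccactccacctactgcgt
The matches begin 228, 189, 43, 24, 124 and 212 bases before the start in that order, and the Eif4e window holds 2.

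**Figure D2:**
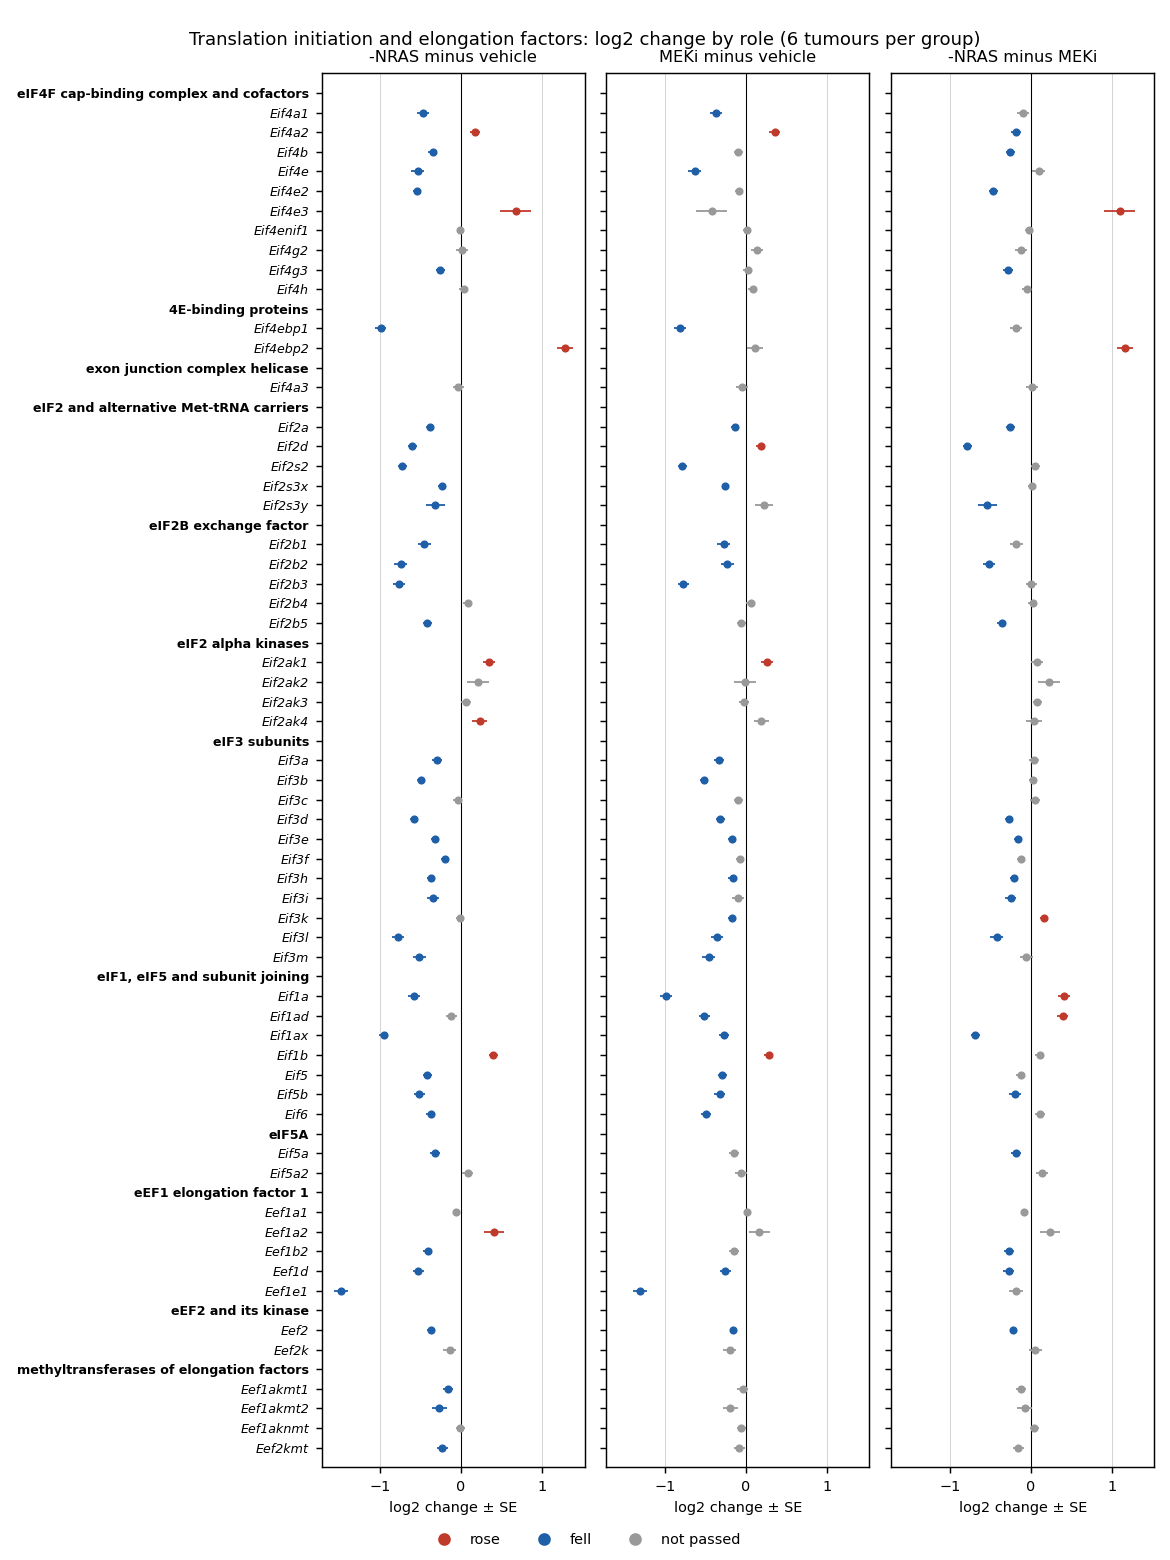
Log2 change (point) with its standard error (bar) for each of the 58 genes, grouped by role, in -NRAS minus vehicle, MEKi minus vehicle and -NRAS minus MEKi tumours on a shared axis; red rose, blue fell, grey did not pass. Eef1e1 stands lowest in both comparisons with vehicle, at -1.49 and -1.31, and Eif4ebp2 highest in -NRAS minus vehicle at 1.28.

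Of 10 eIF4F genes, 5 fell and 2 rose in -NRAS against vehicle tumours, 2 fell and 1 rose in MEKi against vehicle tumours, and 4 fell and 1 rose in -NRAS against MEKi tumours. Of all genes tested, 27.5% fell and 31.8% rose in the first comparison, 20.9% and 24.3% in the second, and 22.7% and 24.3% in the third. The MEKi falls, 20% of the genes, were near the 20.9% of all genes. Eif4e, the cap-binding subunit, had intensities (lowest, median and highest of 6) of 1842, 1918 and 2136 in -NRAS tumours, 1658, 1825 and 1985 in MEKi tumours, and 2417, 2816 and 3436 in vehicle tumours. Both treated groups lay wholly below vehicle tumours. Against vehicle, Eif4e fell by 0.53 ± 0.076 in -NRAS tumours (log2 change ± standard error, adjusted p = 6.5e-06) and by 0.63 ± 0.076 in MEKi tumours (adjusted p = 1.94e-06), and all 4 of its probe sets fell in both comparisons. Between the treated groups the 4 probe sets of Eif4e did not share a direction: its brightest differed by 0.10 ± 0.076 (adjusted p = 0.316), while 1 dimmer one rose and another fell.

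The helicase pair moved in opposite directions. Eif4a1 read 6511, 7039.5 and 7790.1 in -NRAS tumours, 6464, 7881 and 8353 in MEKi tumours, and 8916, 9731 and 11245 in vehicle tumours, given here and below as lowest, median and highest of 6. Both treated groups lay below every vehicle tumour, with log2 changes of -0.47 ± 0.074 in -NRAS tumours and -0.37 ± 0.074 in MEKi tumours. Its close paralogue Eif4a2 read 4877, 5338 and 6234 in -NRAS tumours, 5810.1, 6187 and 6537 in MEKi tumours, and 4428, 4928 and 5143 in vehicle tumours, highest in MEKi tumours. Eif4a2 rose by 0.36 ± 0.062 in MEKi tumours (adjusted p = 0.000127). It rose by 0.17 ± 0.062 in -NRAS tumours (adjusted p = 0.0246), where the groups overlapped and leaving out 1 of 4 single tumours ended the call (-NRAS replicate 3 or 4, vehicle replicate 2 or 4). Centring each array on its median also ended the -NRAS call of Eif4a2 (0.138, adjusted p = 0.0582). Among the cofactors Eif4b, which stimulates the helicase, fell by 0.35 ± 0.056 and the scaffold Eif4g3 by 0.26 ± 0.058 in -NRAS tumours, while their changes in MEKi tumours were -0.094 and 0.023 and did not pass. The other 2 probe sets of Eif4b fell in MEKi tumours as well. The brightest probe sets of Eif4g2, Eif4h and Eif4enif1 passed in none of the 3 comparisons, but of dimmer ones 2 of Eif4g2 rose in -NRAS tumours, 1 of them also in MEKi tumours, and 1 of Eif4h fell in -NRAS tumours.

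The eIF4E relatives Eif4e2 and Eif4e3 separated the treated groups from each other. Eif4e2, a cap-binding protein that represses translation, read 1062, 1082 and 1197 in -NRAS tumours, 1437, 1506 and 1641 in MEKi tumours, and 1402, 1641 and 1700.2 in vehicle tumours, and -NRAS tumours lay below all others. Eif4e2 fell by 0.54 ± 0.052 against vehicle and by 0.46 ± 0.052 against MEKi tumours, but of its other 4 probe sets 1 fell and 1 rose against vehicle, and its mean over probe sets did not pass against MEKi tumours (-0.116, adjusted p = 0.0922). Eif4e3 had values of 870.4, 1058 and 1331 in -NRAS tumours, 363, 474 and 805 in MEKi tumours, and 429, 663 and 923 in vehicle tumours, and all -NRAS tumours exceeded all MEKi tumours. The log2 change of Eif4e3 was 0.68 ± 0.19 against vehicle (adjusted p = 0.00512), -0.42 ± 0.19 in MEKi tumours against vehicle (adjusted p = 0.084) and 1.10 ± 0.19 between the treated groups (adjusted p = 0.000101). The macrophage markers had the same order of groups, with all 12 higher in -NRAS than in vehicle tumours and 10 lower in MEKi tumours. With macrophage and fibroblast scores in the model Eif4e3 passed neither against vehicle (-0.325 ± 0.863, adjusted p = 0.918) nor between the treated groups (1.156 ± 0.648, adjusted p = 0.504). That fit ended all 24 and all 15 calls of the genes with tumour values in these comparisons. It cannot tell group and score apart, and the part of host cells was not tested.

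The 4E-binding proteins, which hold eIF4E away from eIF4G, changed in opposite directions in -NRAS tumours. Eif4ebp1 read 1485, 1837 and 1867 in -NRAS tumours, 1627, 2009 and 2216 in MEKi tumours, and 3311, 3389 and 3928 in vehicle tumours, and the treated groups overlapped each other below every vehicle tumour. Eif4ebp1 fell by 0.99 ± 0.073 in -NRAS tumours (adjusted p = 1.19e-09) and by 0.81 ± 0.073 in MEKi tumours (adjusted p = 5e-08), and all 3 of its probe sets fell in both. Its difference between the treated groups was -0.18 ± 0.073 (adjusted p = 0.0501). Eif4ebp2 read 878, 1087 and 1338 in -NRAS tumours, 413, 483 and 586 in MEKi tumours, and 404, 431 and 477 in vehicle tumours, and each -NRAS tumour stood above all 12 others. Eif4ebp2 rose by 1.28 ± 0.10 against vehicle (adjusted p = 1.75e-09) and by 1.17 ± 0.10 against MEKi tumours (adjusted p = 1.36e-08), while its change in MEKi tumours was 0.12 ± 0.10 (adjusted p = 0.356). This rise of Eif4ebp2 rests on 1 of 5 probe sets; the other 4 had group means between 27.6 and 134 and passed in no comparison, and the mean over all 5 changed by 0.231 in -NRAS tumours. The summed macrophage and fibroblast marker intensities were highest in -NRAS tumours. With those scores in the model the change of Eif4ebp2 was 0.841 ± 0.474 against vehicle (adjusted p = 0.473) and 1.115 ± 0.357 against MEKi tumours (adjusted p = 0.18), and neither passed. As for Eif4e3, that fit cannot tell group and score apart, and the part of host cells was not tested.

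**Figure D3:**
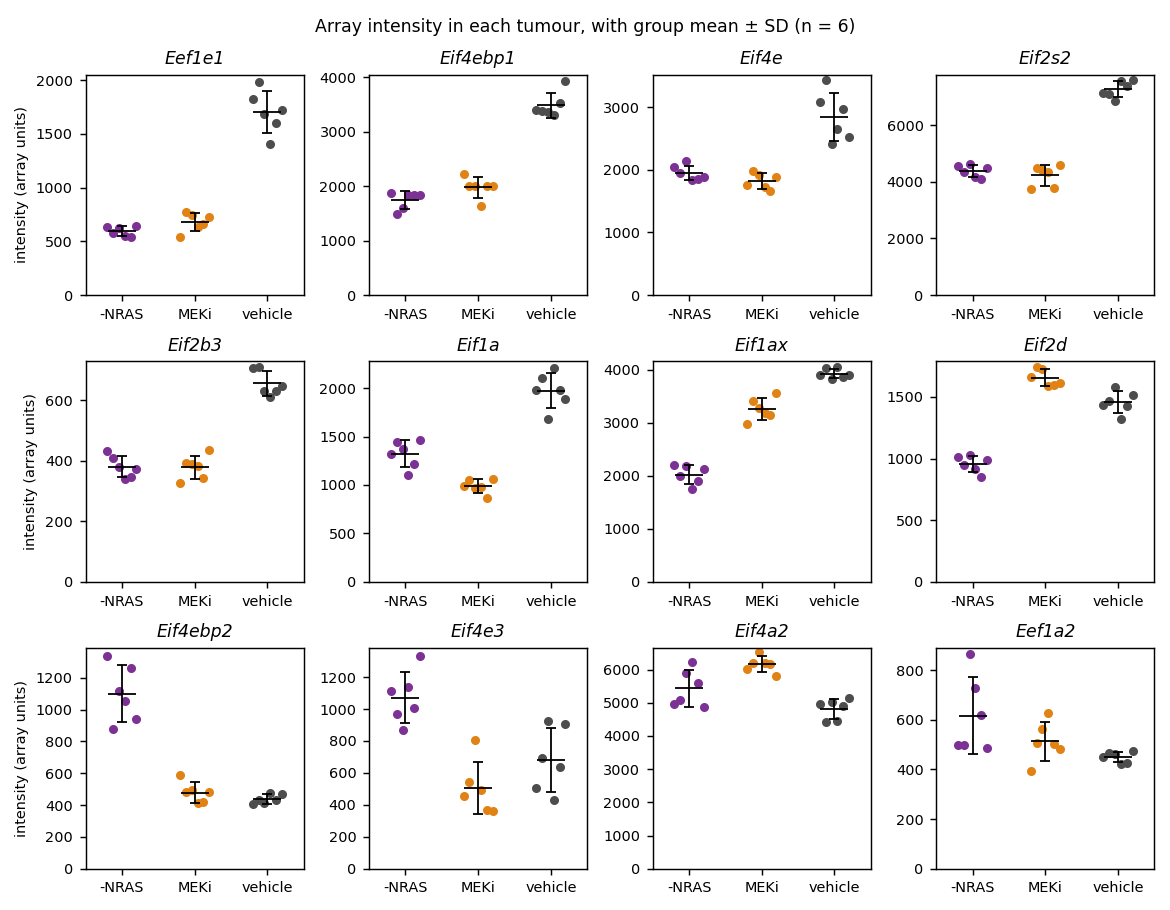
Array intensity of 12 genes in each tumour (points), with group mean and SD (bars, n = 6), for -NRAS, MEKi and vehicle tumours left to right; each vertical axis starts at 0. Eef1e1, Eif4ebp1, Eif4e, Eif2s2 and Eif2b3 are low in both treated groups, while Eif1ax, Eif2d and Eif4ebp2 set -NRAS tumours apart from both other groups.

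All 5 genes for eIF2 and the alternative carriers of the initiator tRNA fell in -NRAS tumours, and in MEKi tumours 3 fell and 1 rose. Among all genes 27.5% fell in -NRAS tumours, and 20.9% fell and 24.3% rose in MEKi tumours. Eif2s2, the beta subunit of eIF2, read 4113, 4428 and 4637 in -NRAS tumours, 3755, 4391 and 4591 in MEKi tumours, and 6861, 7265 and 7594 in vehicle tumours. Levels in the treated groups overlapped each other and lay below all vehicle tumours. Eif2s2 fell by 0.73 ± 0.056 in -NRAS tumours (adjusted p = 2.37e-09) and by 0.78 ± 0.056 in MEKi tumours (adjusted p = 2.94e-09); all 6 probe sets fell in the first comparison and 5 in the second. The gamma subunit has copies on both sex chromosomes. Eif2s3x, the X copy, fell by 0.24 ± 0.047 and 0.25 ± 0.047 in the same comparisons. Eif2s3y, the Y copy, read 768, 866 and 971 in -NRAS tumours, 921, 1304 and 1399 in MEKi tumours, and 777, 1054 and 1299 in vehicle tumours, and its -NRAS tumours overlapped both other groups. Eif2s3y fell by 0.31 ± 0.11 against vehicle (adjusted p = 0.024), a call lost without vehicle replicate 4 or 5 or -NRAS replicate 4, and by 0.54 ± 0.11 against MEKi tumours (adjusted p = 0.000683).

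Eif2d, which can deliver the initiator tRNA without eIF2, moved in opposite directions in the treated groups. Its intensities were 849, 969 and 1030.2 in -NRAS tumours, 1589, 1636 and 1743 in MEKi tumours, and 1317, 1453 and 1579 in vehicle tumours, so that the 3 groups did not overlap. Eif2d fell by 0.60 ± 0.054 in -NRAS tumours (adjusted p = 1.74e-08) and rose by 0.18 ± 0.054 in MEKi tumours (adjusted p = 0.00936), a difference of -0.78 ± 0.054 between them (adjusted p = 1.27e-09). Of its 4 probe sets that passed the filter, 3 fell in -NRAS tumours against vehicle, and 2 rose in MEKi tumours. Eif2a, another alternative carrier, fell by 0.38 ± 0.051 and 0.13 ± 0.051 in -NRAS and MEKi tumours. Its MEKi fall did not pass with probe sets fitted singly (adjusted p = 0.0542 in limma). A dimmer probe set of Eif2a changed by -0.29 in -NRAS and 0.31 in MEKi tumours and did not pass.

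The exchange factor eIF2B, which reloads eIF2 with GTP, had 4 of 5 subunit genes lower in -NRAS tumours and 3 of 5 lower in MEKi tumours. The shares of all genes that fell were 27.5% and 20.9%. Eif2b3, the gamma subunit, read 342, 378 and 432 in -NRAS tumours, 326, 386 and 436 in MEKi tumours, and 611, 639 and 710.03 in vehicle tumours, and the treated groups covered nearly the same range, below every vehicle tumour. Eif2b3 fell by 0.76 ± 0.071 (adjusted p = 2.73e-08) and 0.77 ± 0.071 (adjusted p = 6.7e-08) in -NRAS and MEKi tumours. Eif2b2, the beta subunit, read 1129, 1257 and 1568 in -NRAS tumours, 1714, 1804 and 2073 in MEKi tumours, and 1815, 2154 and 2388 in vehicle tumours, with -NRAS tumours below all others. Eif2b2 fell by 0.74 ± 0.079 in -NRAS tumours, and by 0.23 ± 0.079 in MEKi tumours, a call lost without vehicle replicate 4; all 3 of its probe sets fell in both. Eif2b5, the catalytic subunit, read 675, 743 and 810.3 in -NRAS tumours, 896, 949 and 995 in MEKi tumours, and 875, 1023 and 1054 in vehicle tumours, and every -NRAS tumour lay below all others. Eif2b5 fell by 0.41 ± 0.056 in -NRAS tumours (adjusted p = 3.49e-06), while its change in MEKi tumours was -0.058 ± 0.056 (adjusted p = 0.436). Eif2b1 fell by 0.45 ± 0.081 in -NRAS tumours and 0.27 ± 0.081 in MEKi tumours, and Eif2b4 passed in no comparison.

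None of the 4 eIF2 kinases fell, and the changes that passed were small. Among all genes 27.5% fell in -NRAS and 20.9% in MEKi against vehicle tumours. Eif2ak1, the heme-regulated kinase HRI, read 207, 256 and 277 in -NRAS tumours, 212, 230.4 and 287 in MEKi tumours, and 179.5, 187 and 212 in vehicle tumours. Its groups overlapped, with log2 changes of 0.35 ± 0.076 in -NRAS tumours (adjusted p = 0.000615) and 0.27 ± 0.076 in MEKi tumours (adjusted p = 0.00722). Other probe sets of Eif2ak1 did not follow: 1 of them fell in MEKi tumours, and the mean over probe sets changed by 0.056 (adjusted p = 0.223) and -0.009 (adjusted p = 0.872). Eif2ak4, the amino acid sensor GCN2, read 219, 229 and 259 in -NRAS tumours, 172, 234 and 250.02 in MEKi tumours, and 157, 197 and 237 in vehicle tumours, with overlap throughout. Its brightest probe set rose by 0.23 ± 0.10 in -NRAS tumours (adjusted p = 0.0429), a call lost when any 1 of 7 tumours was left out (-NRAS replicate 1, 4, 5 or 6, or vehicle replicate 2, 3 or 4) and under median centring or quantile normalization. A dimmer probe set of Eif2ak4 rose by 0.44 against vehicle (adjusted p = 0.00112 in limma) and by 0.41 against MEKi tumours (adjusted p = 0.00323). The mean over its probe sets rose by 0.336 (adjusted p = 0.000791) and 0.223 (adjusted p = 0.0204) in these comparisons. Eif2ak3, the endoplasmic reticulum kinase PERK, read 1119, 1224 and 1328 in -NRAS tumours, 1077, 1157 and 1216 in MEKi tumours, and 1052, 1147 and 1331 in vehicle tumours, and its groups overlapped. Neither Eif2ak3 (0.063 and -0.020 in -NRAS and MEKi against vehicle tumours) nor the double-stranded RNA sensor Eif2ak2 (0.21 and -0.0061) passed. Both dimmer probe sets of Eif2ak2 rose in -NRAS tumours, by 0.28 (adjusted p = 0.00458) and 0.38 (adjusted p = 0.0401), and the first of them was also higher than in MEKi tumours (adjusted p = 0.00937).

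Subunits of eIF3, the scaffold on the small ribosomal subunit, shifted down by modest amounts. Of 11 genes, 9 fell in -NRAS tumours and 8 in MEKi tumours, beside 27.5% and 20.9% of all genes. None rose against vehicle, beside 31.8% and 24.3% of all genes. The median log2 changes of the 11 genes were -0.35 and -0.17. Eif3l read 7106, 7849 and 9346 in -NRAS tumours, 9857, 10722 and 12038 in MEKi tumours, and 12879, 13491 and 15982 in vehicle tumours, and its 3 groups did not overlap. Eif3l fell by 0.77 ± 0.074 in -NRAS tumours (adjusted p = 4.31e-08) and by 0.35 ± 0.074 in MEKi tumours (adjusted p = 0.000727), although its mean over probe sets did not pass in MEKi tumours (-0.1, adjusted p = 0.0996). The other falls in -NRAS tumours lay between -0.19 (Eif3f) and -0.58 (Eif3d). The brightest probe set of Eif3c passed in no comparison, while 1 of its other 3 fell in both treated groups. Eif3k, a subunit outside the conserved core, read 2659.7, 2767 and 2989.6 in -NRAS tumours, 2232, 2505 and 2794 in MEKi tumours, and 2647, 2818 and 2989 in vehicle tumours. It fell by 0.17 ± 0.052 in MEKi tumours against vehicle (adjusted p = 0.0105). Eif3k was higher in -NRAS than in MEKi tumours by 0.16 ± 0.052 (adjusted p = 0.0137), a call that median centring ended (0.133, adjusted p = 0.0533), and its change in -NRAS tumours against vehicle was -0.0083 ± 0.052 (adjusted p = 0.903).

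Factors of start codon selection and subunit joining fell in most cases: of 7 genes, 5 fell and 1 rose in -NRAS tumours, and 6 fell and 1 rose in MEKi tumours. Among all genes 27.5% fell and 31.8% rose in -NRAS tumours, and 20.9% and 24.3% in MEKi tumours. The eIF1A genes, whose product opens the small subunit for scanning, ranked the treated groups in opposite order. Eif1a read 1107, 1349 and 1463 in -NRAS tumours, 869.7, 985 and 1065 in MEKi tumours, and 1686, 1981 and 2208 in vehicle tumours, lowest in MEKi tumours, with no overlap between groups. Eif1a fell by 0.57 ± 0.075 in -NRAS tumours (adjusted p = 2.21e-06) and by 0.98 ± 0.075 in MEKi tumours (adjusted p = 6.45e-09), and both of its probe sets did so. The X-linked copy Eif1ax read 1744, 2064 and 2209 in -NRAS tumours, 2986, 3235 and 3562 in MEKi tumours, and 3821, 3903 and 4047 in vehicle tumours, lowest in -NRAS tumours and also without overlap. Eif1ax fell by 0.95 ± 0.058 in -NRAS tumours (adjusted p = 8.21e-11) and by 0.27 ± 0.058 in MEKi tumours (adjusted p = 0.000828); of its other probe sets 1 fell in -NRAS tumours and 1 rose in MEKi tumours. The mean over all 3 was -0.3 in -NRAS tumours (adjusted p = 0.000133) and 0.063 in MEKi tumours (adjusted p = 0.392). The sequences of these copies are alike, and the part of shared hybridisation was not tested.

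Eif1ad, which holds an eIF1A-like domain, read 479, 519 and 598 in -NRAS tumours, 349.9, 400.03 and 431 in MEKi tumours, and 513, 569 and 659.8 in vehicle tumours, and MEKi tumours lay below all others. Eif1ad fell by 0.52 ± 0.069 in MEKi tumours (adjusted p = 6.91e-06), but its second probe set fell in -NRAS tumours instead. Eif1b, a paralogue of the start codon factor eIF1, read 2354, 2538 and 2811 in -NRAS tumours, 2264, 2331 and 2536 in MEKi tumours, and 1749.8, 1946 and 2104 in vehicle tumours, and was the exception to the falls. All treated tumours exceeded all vehicle tumours for Eif1b, with rises of 0.40 ± 0.056 in -NRAS tumours (adjusted p = 5.09e-06) and 0.28 ± 0.056 in MEKi tumours (adjusted p = 0.000364). Eif6, which keeps the large subunit from joining too early, read 1106, 1218 and 1329.8 in -NRAS tumours, 1102, 1108 and 1176 in MEKi tumours, and 1356, 1573 and 1762 in vehicle tumours. Eif6 fell by 0.38 ± 0.059 and 0.49 ± 0.059 in -NRAS and MEKi tumours (adjusted p = 2.02e-05 and 1.85e-06), below every vehicle tumour. Eif5, which triggers GTP hydrolysis by eIF2, fell by 0.42 ± 0.056 in -NRAS and 0.29 ± 0.056 in MEKi tumours, and Eif5b, which joins the subunits, by 0.52 ± 0.069 in -NRAS and 0.32 ± 0.069 in MEKi tumours.

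The gene with the largest fall of all 58 members against vehicle, in both treated groups, carries an elongation factor's name. This gene, Eef1e1, encodes a scaffold of the multi-tRNA synthetase complex and read 544, 602 and 641 in -NRAS tumours, 544, 693 and 774 in MEKi tumours, and 1404, 1704 and 1980.2 in vehicle tumours. The treated groups overlapped each other, and every treated tumour lay below the lowest vehicle tumour. Eef1e1 fell to 0.357 of the vehicle level in -NRAS tumours (log2 -1.49 ± 0.087, adjusted p = 5.41e-11) and to 0.404 of it in MEKi tumours (log2 -1.31 ± 0.087, adjusted p = 1.2e-09). The difference between the treated groups was -0.18 ± 0.087 (adjusted p = 0.0981). A single probe set reads this gene.

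Eef1a1, the main carrier of aminoacyl-tRNA, read 29107, 29792 and 30989 in -NRAS tumours, 31441, 31617 and 32495 in MEKi tumours, and 29717, 31461 and 32457 in vehicle tumours. The -NRAS tumours lay below all MEKi tumours and overlapped vehicle tumours. Its changes against vehicle, -0.064 ± 0.036 in -NRAS tumours (adjusted p = 0.131) and 0.018 ± 0.036 in MEKi tumours (adjusted p = 0.731), did not pass. The -NRAS change passed under median centring (-0.097, adjusted p = 0.0298 in limma) and quantile normalization (-0.111, adjusted p = 0.0129). Between the treated groups the difference of -0.082 did not pass, but did under some alternatives, such as median centring (-0.112, adjusted p = 0.0176). Signals as bright as that of Eef1a1 can saturate, which was not tested. The exchange factors that recharge eEF1A moved down, with Eef1b2 falling by 0.41 ± 0.060 and Eef1d by 0.52 ± 0.067 in -NRAS tumours. In MEKi tumours Eef1d fell by 0.25 ± 0.067 and Eef1b2 changed by -0.15 (adjusted p = 0.055). Eef1a2, the form of eEF1A found in muscle and neurons, read 487, 561 and 865 in -NRAS tumours, 392, 505 and 629 in MEKi tumours, and 423, 458 and 475 in vehicle tumours. All -NRAS tumours exceeded all vehicle tumours for Eef1a2, a rise of 0.41 ± 0.13 (adjusted p = 0.00959), and all 12 skeletal muscle markers rose in the same comparison. With the muscle score as a covariate the change of Eef1a2 was -0.042 (adjusted p = 0.896 in limma). That score itself differed between the groups (mean log2 11.464 in -NRAS and 9.184 in vehicle tumours). Such a fit cannot tell group and score apart, and the part of muscle RNA was not tested.

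Eef2, the translocase, read 11572, 12034 and 12596 in -NRAS tumours, 12859.9, 14161 and 14926 in MEKi tumours, and 15005, 15591 and 16296 in vehicle tumours, and the 3 groups did not overlap. Eef2 fell by 0.37 ± 0.042 in -NRAS tumours (adjusted p = 3.94e-07) and by 0.16 ± 0.042 in MEKi tumours (adjusted p = 0.00482), where quantile normalization ended the call (-0.091, adjusted p = 0.107). Its inhibitory kinase Eef2k read 572, 702 and 792 in -NRAS tumours, 614, 653 and 761 in MEKi tumours, and 663, 758 and 877 in vehicle tumours, with overlap among all groups. The brightest probe set of Eef2k did not pass in any comparison, and its 2 dimmer ones went opposite ways in -NRAS tumours. In MEKi tumours its change of -0.20 ± 0.080 (adjusted p = 0.0509) lay at the threshold, and passed with the mean over probe sets (-0.202, adjusted p = 0.00637), the most variable probe set (-0.38, adjusted p = 0.00012), median centring (adjusted p = 0.0489) and quantile normalization (adjusted p = 0.0493), among others. Eif5a, which carries the modified residue hypusine and relieves stalled ribosomes, read 13574, 13877 and 14436 in -NRAS tumours, 13559, 16048 and 17039.8 in MEKi tumours, and 15340.2, 17386 and 19237 in vehicle tumours. Eif5a fell by 0.32 ± 0.061 in -NRAS tumours (adjusted p = 0.000152) and changed by -0.14 ± 0.061 in MEKi tumours (adjusted p = 0.0636), whereas its paralogue Eif5a2 passed nowhere. The dimmer probe set of Eif5a did fall in MEKi tumours (-0.21, adjusted p = 0.027 in limma), as did the mean over its probe sets (-0.177, adjusted p = 0.0224). Of 4 methyltransferases that modify elongation factors, 3 fell in -NRAS tumours (27.5% of all genes), by 0.16 ± 0.062 to 0.27 ± 0.090. None of their brightest probe sets passed in the other comparisons. A dimmer probe set of Eef1akmt1 fell in MEKi tumours (-0.23, adjusted p = 0.0162 in limma). A dimmer probe set of Eef1aknmt rose in -NRAS tumours (0.24, adjusted p = 0.00773) and was higher there than in MEKi tumours (0.26, adjusted p = 0.00689).

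Other genes of the pathway were taken from lists drawn up for the pathway. Of 17 regulators of cap-dependent initiation, 6 rose and 6 fell in -NRAS tumours (35.3% each, against 31.8% and 27.5% of all genes), and in MEKi tumours 7 rose and 2 fell (41.2% and 11.8%, against 24.3% and 20.9%). Deptor, an inhibitor of mTOR, rose by 1.86 ± 0.10 in -NRAS tumours (adjusted p = 9.86e-12) and 1.72 ± 0.10 in MEKi tumours (adjusted p = 1.65e-10). Mknk1, a kinase that phosphorylates eIF4E, rose by 1.08 ± 0.079 in -NRAS and 0.39 ± 0.079 in MEKi tumours, and by 0.69 ± 0.079 in -NRAS against MEKi tumours. Pdcd4, an inhibitor of eIF4A, rose by 0.86 ± 0.10 in -NRAS and 0.26 ± 0.10 in MEKi tumours.

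Termination factors were mostly lower in -NRAS tumours. Of 6 genes 5 fell in -NRAS tumours (83.3%), while in MEKi tumours 2 fell (33.3%) and 4 did not pass. Over all genes, 27.5% fell and 31.8% rose in -NRAS tumours, and 20.9% fell and 24.3% rose in MEKi tumours. In -NRAS against MEKi tumours 22.7% of all genes fell and 24.3% rose. Those lower in both treated groups were the release factors Etf1 (log2 change -0.68 in -NRAS and -0.84 in MEKi tumours) and Gspt1 (-0.70 in -NRAS and -0.56 in MEKi tumours). Enzymes that build hypusine on eIF5A or diphthamide on eEF2 fell in 7 of 9 cases (77.8%) in each treated group. In -NRAS tumours 1 of the 9 rose (11.1%), Dph7, by 0.21 ± 0.077 (adjusted p = 0.0227 in limma). Dhps, the first hypusine enzyme, fell by 0.67 ± 0.070 in -NRAS and 0.45 ± 0.070 in MEKi tumours. Dph5 fell by 0.53 ± 0.083 in -NRAS and 0.78 ± 0.083 in MEKi tumours. In the list of eIF2 phosphatase and ribosome recruitment genes, 4 of 9 fell and 2 rose in -NRAS tumours (44.4% and 22.2%). In MEKi tumours 6 fell (66.7%), and 4 were higher in -NRAS than in MEKi tumours (44.4%). Impact, an inhibitor of GCN2, rose by 0.55 ± 0.070 in -NRAS tumours, with 0.15 in MEKi tumours (adjusted p = 0.0826). Of only 8 mitochondrial translation factors 3 fell and 1 rose in each comparison with vehicle (37.5% and 12.5%). These are too few genes to set against the shares of all genes, a limit that also holds for the lists of 6 and 9 genes above. Among 48 cytosolic ribosomal protein genes 39 fell and 2 rose in -NRAS tumours (81.2% and 4.17%), and 17 fell and 1 rose in MEKi tumours (35.4% and 2.08%). In -NRAS against MEKi tumours 31 of these genes fell and 5 rose (64.6% and 10.4%). Their median log2 changes were -0.21, -0.076 and -0.13. Whether the marker shifts given above bear on these lists was not tested.

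**Figure D4:**
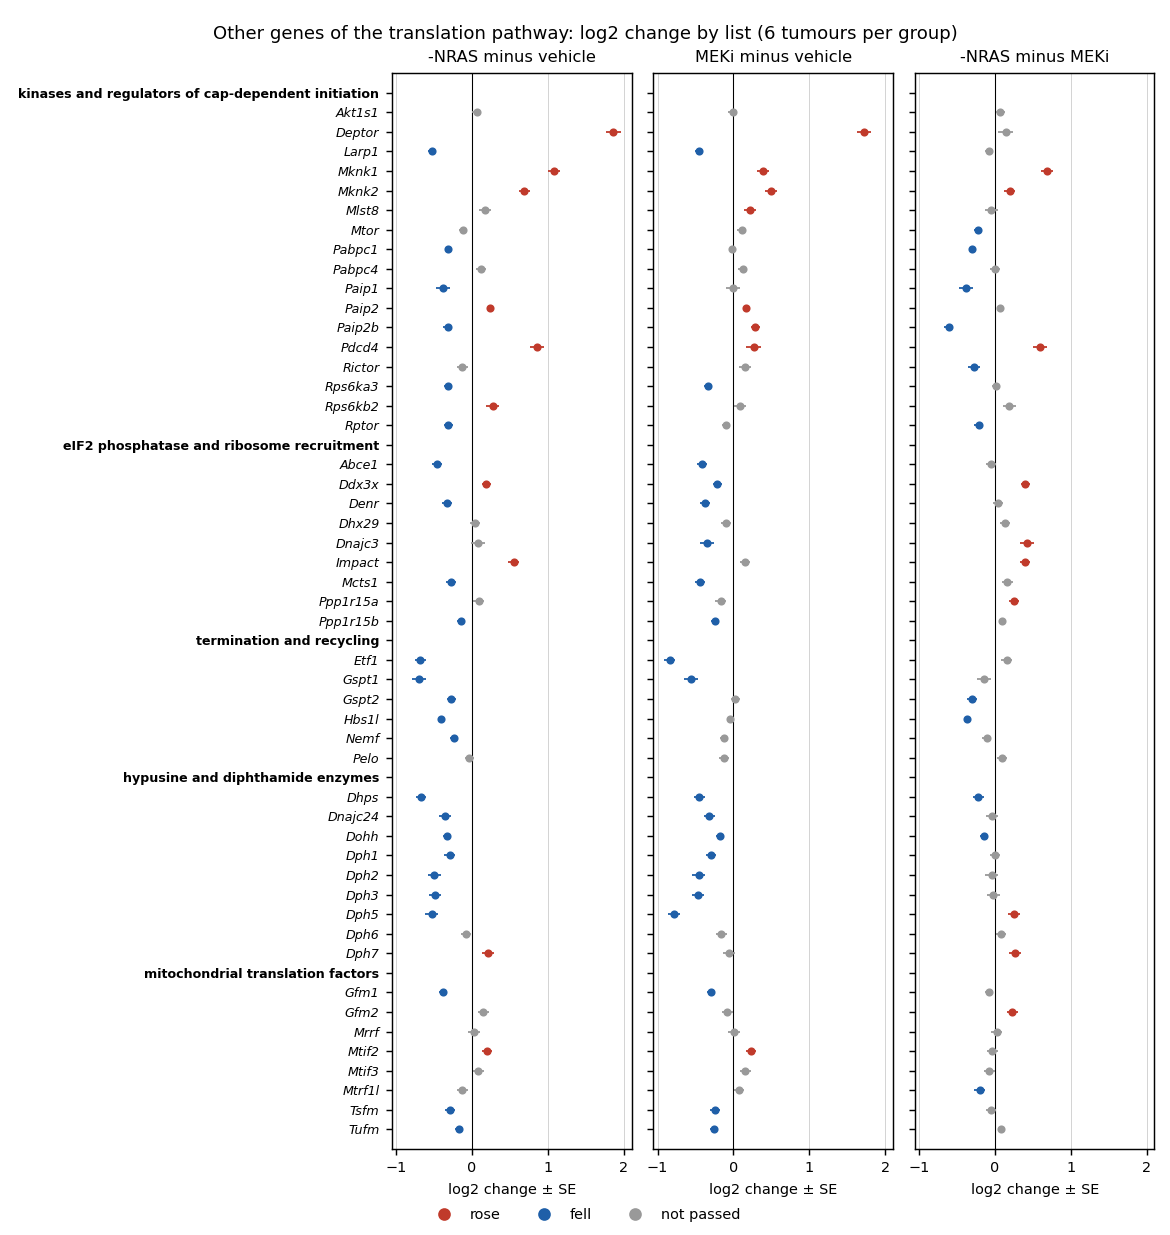
Log2 change (point) with its standard error (bar) for the other genes of the translation pathway, by list, in -NRAS minus vehicle, MEKi minus vehicle and -NRAS minus MEKi tumours; red rose, blue fell, grey did not pass. Deptor lies farthest to the right in both comparisons with vehicle, at 1.86 and 1.72.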

How the data were processed

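Per the submitters' processing notes, MAS5 and RMA were used on these arrays; which made the table, and their versions, are not given in the sources used here. The deposited table holds 1 intensity per probe set and array, already summarised and scaled by the authors; all values were positive and were read as linear, so a different transformation would change the folds. Probe sets were named by the platform annotation, and each gene stands for its probe set with the highest mean. The 8 probe sets that carry several symbols, an Eif or Eef gene among them, were not used. Intensities were transformed here to log2(intensity + 16), since the deposited values carry no log2 scale, and folds of dim genes are therefore understated. A gene was tested where its mean exceeded the lowest 25 percent of probe sets (log2 5.305), which 15005 genes did. The 3 groups were fitted together in limma 3.58.1 (R 4.3.3), with Benjamini-Hochberg adjustment over all genes in each contrast and a threshold of 0.05; ± after a log2 change is its standard error. The fit was tested on simulated data. No label or header gives a batch, so none was tested, and the number of arrays limits the precision. No 2 arrays held identical values.

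Members, lists and rules were chosen with earlier results of these data known. Tumour values are given for a set list of factors and for the 6 largest rises and falls per contrast that passed. These are called the named genes below. The other members are given by role, and genes outside the members come from the pathway lists, up to 3 per list. Eif4g1, Eif2s1 and Eif4ebp3 of that set list had no probe set under the rule and were not analysed here. Alternatives were other filters, other choices of probe set, median centring, quantile normalization, pseudocounts of 1 and 64, other priors and weights, 2 groups only, the replicate block, marker scores as covariates, stricter thresholds and leaving out each tumour. Promoters are from RefSeq (GRCm38.p6). Figures used matplotlib in Python.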

Additional observations from a re-analysis of the deposited data

Results flagged for a closer look

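Among 87 combinations of a named gene and a group, 8 held 1 tumour whose gap to the nearest of the others was large for a group of 6 (Dixon's test at the 95% level); chance alone flags about 1 in 20. In MEKi tumours, Eif2ak1 read 286.7 in replicate 1 against 211.7 to 233.4 in the others. Eif2ak4 read 172.2 in MEKi replicate 4 against 232.4 to 250.02 in the other MEKi tumours. Eif2s3y read 920.9 in MEKi replicate 2, where the others read 1266 to 1399. Eif6 read 1176 in MEKi replicate 6 against 1102 to 1110.5 in the others. Eif4ebp1 read 1627 in MEKi replicate 4, where the others read 2008 to 2216, and 3928 in vehicle replicate 6, where the others read 3311 to 3521. Eif4e2 read 1197 in -NRAS replicate 1 against 1062 to 1091 in the other -NRAS tumours, and 1402 in vehicle replicate 4 against 1594 to 1700.2 in the other vehicle tumours.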

How the results depend on the processing

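Leaving out any 1 tumour kept all counts of member calls within 1.5 times. In all, 3 kinds of alternative moved them. With macrophage and fibroblast scores as covariates, calls were 0 rises and 0 falls in -NRAS against vehicle tumours, 0 and 6 in MEKi against vehicle tumours, and 0 and 0 in -NRAS against MEKi tumours; over all 15005 genes they were 46 and 122, 377 and 594, and 11 and 43. For the named genes, a setting added after the data were seen, that fit ended 53 of 57 calls, with standard errors several times as large. Among them the sign changed in -NRAS against vehicle tumours for Eef1a2 (-0.289), Eif2s3y (0.551), Eif4a1 (0.181), Eif4a2 (-0.234), Eif4e (0.357), Eif4e3 (-0.325), Eif5a (0.142) and Eif6 (0.084), and in -NRAS against MEKi tumours for Eif3k (-0.143) and Eif5a (0.239), none of which passed. A 1.5-fold minimum left 2 rises and 8 falls, 0 and 6, and 2 and 2 in the same order. Probe sets fitted singly gave 16 rises and 84 falls, 7 and 61, and 13 and 40. Replicate numbers were not taken to pair the tumours, since not every pair had a correlation over 0.1 (1, 4 and 3 of 6 pairs did): same-numbered tumours had correlations of deviations between -0.085 and 0.159, between -0.136 and 0.273, and between 0.036 and 0.152 in the 3 comparisons, and 1, 4 and 2 of 6 correlated best with their own number. With the replicate block 7 members rose and 37 fell, 4 rose and 26 fell, and 5 rose and 21 fell; Eif5a in MEKi against vehicle tumours (-0.143, adjusted p = 0.0422 in limma) and Eif4ebp1 in -NRAS against MEKi tumours (-0.18, adjusted p = 0.0482) newly passed, and no other call of a named gene changed. Other changes of direction where a call passed in either fit began with Eef1a2 in -NRAS against vehicle tumours with the muscle score (-0.042). Eif1ax (0.063) and Eif2ak1 (-0.009) changed sign in MEKi against vehicle tumours as means over probe sets. Eif4e did so in -NRAS against MEKi tumours with the most variable probe set (-0.334, adjusted p = 0.00404 in limma). The cause was not tested, apart from the choice of probe set itself. For single genes without these covariates, 998 of the other values kept their side of the threshold, 33 newly passed and 12 no longer passed. Leaving out a tumour gave 1526, 21 and 19. Values that passed in neither fit counted as kept even where their sign changed. An example was Eif4ebp2 in MEKi against vehicle tumours as a mean over probe sets (-0.01). Dim probe sets limit what can be seen of Eif4a3, whose probe set read near 30.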
